A study of Homo sapiens with 35 samples.

Results

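The genes described here are 33 members of glycolysis, gluconeogenesis and pyruvate metabolism, whose RNA was sequenced in DU145 cells. DU145 is an established line of prostate cancer cells taken from a metastasis in the brain. The members are a list of gene names drawn up with earlier results of these data known, and no threshold on a value was used. Each had its own row among the 28503 genes of the deposited count table. All 33 were abundant enough to be tested. The 6 RNA libraries fall into 3 groups of 2: shLuciferase, the control, in which the hairpin targets a gene these cells do not have, shZMYND8, in which ZMYND8 is knocked down, and shJARID1D, in which JARID1D is knocked down. ZMYND8 binds modified histones through its reader domains. JARID1D is encoded on the Y chromosome by KDM5D and removes methyl groups from histone lysines. The labels put all groups in the same high glucose medium, which also held sodium pyruvate and fetal bovine serum. How many hairpins stand behind each knockdown, and their sequences, is not stated in the labels. A further 29 chromatin and input samples of the series were not analysed here.

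Glycolysis breaks glucose down to pyruvate through a chain of enzymes from hexokinase to pyruvate kinase, and lactate dehydrogenase turns pyruvate into lactate, which leaves the cell through monocarboxylate transporters. Gluconeogenesis runs the other way and needs its own enzymes at the irreversible steps: pyruvate carboxylase, phosphoenolpyruvate carboxykinase, fructose bisphosphatase (FBP1) and a glucose phosphatase. FBP1 undoes the step that phosphofructokinase commits to, so FBP1 and the phosphofructokinases act on the same pair of sugar phosphates in opposite directions. Cancer cells are known for rapid glycolysis with lactate release even when oxygen is present, and loss of FBP1 is known from tumours of the liver and kidney.

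The authors' deposited values are estimated fragment counts, and their totals ran from 22925611 to 25001300 per library. Levels below are in CPM, a gene's count scaled to a common library total with edgeR's factors. Levels of the cell type markers and of untested genes were scaled by library totals alone. Without these factors, 3 deposited counts correspond to 0.124 to 0.136 CPM. KDM5D had 58.1 and 61.0 CPM in the control libraries and 19.6 and 17.9 CPM in the shJARID1D libraries, and ZMYND8 had 64.7 and 52.7 CPM in the control and 35.5 and 33.2 CPM in the shZMYND8 libraries. The columns named Rac7_KO in the table were taken as shZMYND8, since an antibody label of the series gives RACK7 as another name of ZMYND8. Among the markers of the labelled cell type, the summed level of 5 epithelial genes lay between 1017 and 1798 CPM. Of the prostate luminal genes KLK2 was at 0 in all libraries. Of the endothelial list the sum never passed 0.914 CPM, and that of 5 leukocyte genes lay between 35.3 and 57.6 CPM, nearly all of it from CD68, while PTPRC never passed 0.0398 CPM. The epithelial markers EPCAM and KRT19 were lower and CDH1 was higher in shZMYND8 than in the control. In shJARID1D EPCAM, KRT8 and KRT18 were lower than in the control. The part of such shifts in the results below was not tested. In bulk RNA, fewer cells that express a gene and less RNA per cell cannot be told apart.

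In shZMYND8, 9 of the 33 members differed from the control, 5 higher and 4 lower, against 16.2% of the 15867 genes tested (8.89% higher and 7.34% lower). FBP1, PDK3, ALDOC and PGK1 fell, and SLC2A3, SLC16A3, PC, PFKFB4 and GPI rose. In shJARID1D, 6 members differed from the control, 4 higher and 2 lower, against 5.75% of all genes tested (2.96% higher and 2.79% lower). There FBP1 and PGAM1 fell, and SLC2A3, PDK2, PC and SLC16A3 rose. A member counts as higher or lower where edgeR's quasi-likelihood test gave a Benjamini-Hochberg adjusted p under 0.05 over all genes. With 2 libraries a group, the labels do not say that they came from separate cultures, so the p-values rest on the spread between these pairs of libraries alone, and that spread may be technical. Both comparisons use the same control libraries. The median log2 fold change of the members was -0.07 in shZMYND8 and -0.08 in shJARID1D, beside -0.01 and 0.00 over all genes tested. FBP1 in the shZMYND8 comparisons excepted, each member call was lost in at least 1 alternative fit, and the counts moved with single libraries. Without shZMYND8 replicate 1 or 2 the count in shZMYND8 was lower, and without shLuciferase replicate 1 it was higher. The share called over all genes moved the same way in each of these fits. Without either shJARID1D library edgeR called 0 members in shJARID1D, with 6 and 7 of them at an unadjusted p under 0.05, while 0.0981% and 0.135% of all genes tested were called in these fits. In the fit of all libraries DESeq2 called 13 members in shZMYND8 and 8 in shJARID1D, beside 17.3% and 9.48% of all genes tested. There limma voom called 8 and 6, beside 15.9% and 5.16%.

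**Figure D1:**
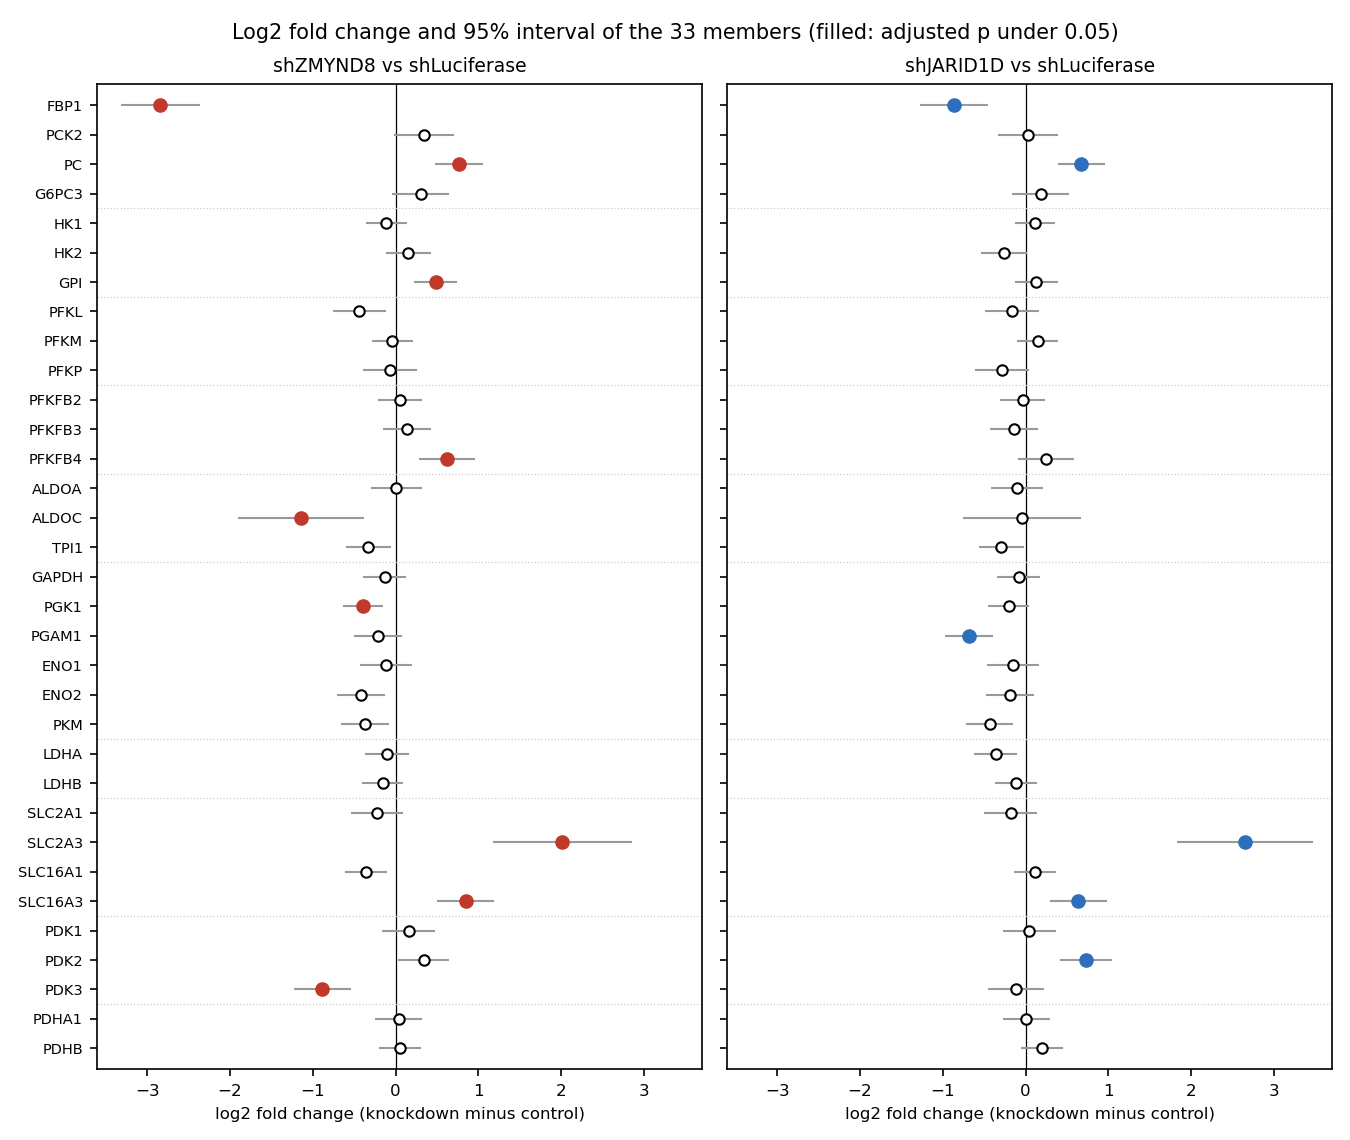
Log2 fold change (knockdown minus control) of each of the 33 members with its 95% interval, in shZMYND8 (left panel) and shJARID1D (right panel), ordered by role from gluconeogenesis at the top to pyruvate dehydrogenase at the bottom and with filled points for an adjusted p under 0.05. FBP1 at -2.84 lies apart from the glycolytic enzymes in the left panel, and SLC2A3 has the highest point in both panels.

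FBP1 was the member with the largest fall in both knockdowns. Its level was 11.9 and 12.1 CPM in the control libraries, 1.93 and 1.42 CPM in the shZMYND8 libraries and 6.64 and 6.56 CPM in the shJARID1D libraries. The groups did not overlap, and the shJARID1D libraries lay between the other groups. These levels rest on 267 and 281 fragments in the control, 49 and 37 in shZMYND8 and 156 and 132 in shJARID1D. In shZMYND8 FBP1 was 7.16-fold lower than in the control, a log2 fold change of -2.84 (SE 0.21, 95% interval -3.31 to -2.37, edgeR adjusted p = 0.000315). Of the 1164 genes lower in shZMYND8, 10 had a larger fall than FBP1 and 0 had a smaller p in edgeR. In shJARID1D FBP1 was 1.82-fold lower, a log2 fold change of -0.86 (SE 0.18, 95% interval -1.27 to -0.45, edgeR adjusted p = 0.0302), and of the 443 lower genes 88 had a larger fall and 246 a smaller p. Leaving out a library kept the shZMYND8 value between -3.08 and -2.64 with adjusted p of at most 0.0031. Without shJARID1D replicate 1 or 2 the shJARID1D value was -0.87 or -0.85 and no longer passed (edgeR adjusted p = 0.181 and 0.153).

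Of the other 3 gluconeogenic members, PC rose in both knockdowns, and PCK2 and G6PC3 did not pass. PC is the mitochondrial pyruvate carboxylase that makes oxaloacetate from pyruvate. It had 15.5 and 15.9 CPM in the control, 28.2 and 24.99 CPM in shZMYND8 and 25.7 and 24.3 CPM in shJARID1D. Every knockdown library lay above both control libraries. PC rose 1.70-fold in shZMYND8 (log2 0.76, SE 0.13, edgeR adjusted p = 0.0043) and 1.60-fold in shJARID1D (log2 0.67, SE 0.13, edgeR adjusted p = 0.0214). PCK2, the mitochondrial phosphoenolpyruvate carboxykinase, had 35.9 and 47.6 CPM in the control, 47.6 and 57.9 CPM in shZMYND8 and 39.8 and 45.3 CPM in shJARID1D. Its log2 fold changes of 0.34 (95% interval -0.02 to 0.70) and 0.03 (95% interval -0.34 to 0.39) did not pass. G6PC3, the broadly expressed glucose phosphatase, had log2 fold changes of 0.30 (95% interval -0.04 to 0.65) and 0.18 (95% interval -0.16 to 0.53), which did not pass either. Without shZMYND8 replicate 1 PC in shZMYND8 missed the threshold (0.67, edgeR adjusted p = 0.0646), as it did in shJARID1D without replicate 1 (0.64, edgeR adjusted p = 0.169) or replicate 2 (0.71, edgeR adjusted p = 0.0981). Without shLuciferase replicate 2, PCK2 (0.55, edgeR adjusted p = 0.0294) and G6PC3 (0.50, edgeR adjusted p = 0.0407) passed in shZMYND8.

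Other forms of these gluconeogenic enzymes were at or near 0 in DU145. PCK1, the cytosolic carboxykinase, and G6PC2 had 0 fragments in every library. G6PC, the glucose phosphatase of liver, reached at most 1 fragment in a library, and FBP2, the muscle fructose bisphosphatase, at most 5 fragments or 0.170 CPM. They were below the filter and were not tested, as was the liver pyruvate kinase PKLR, with at most 0.438 CPM.

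**Figure D2:**
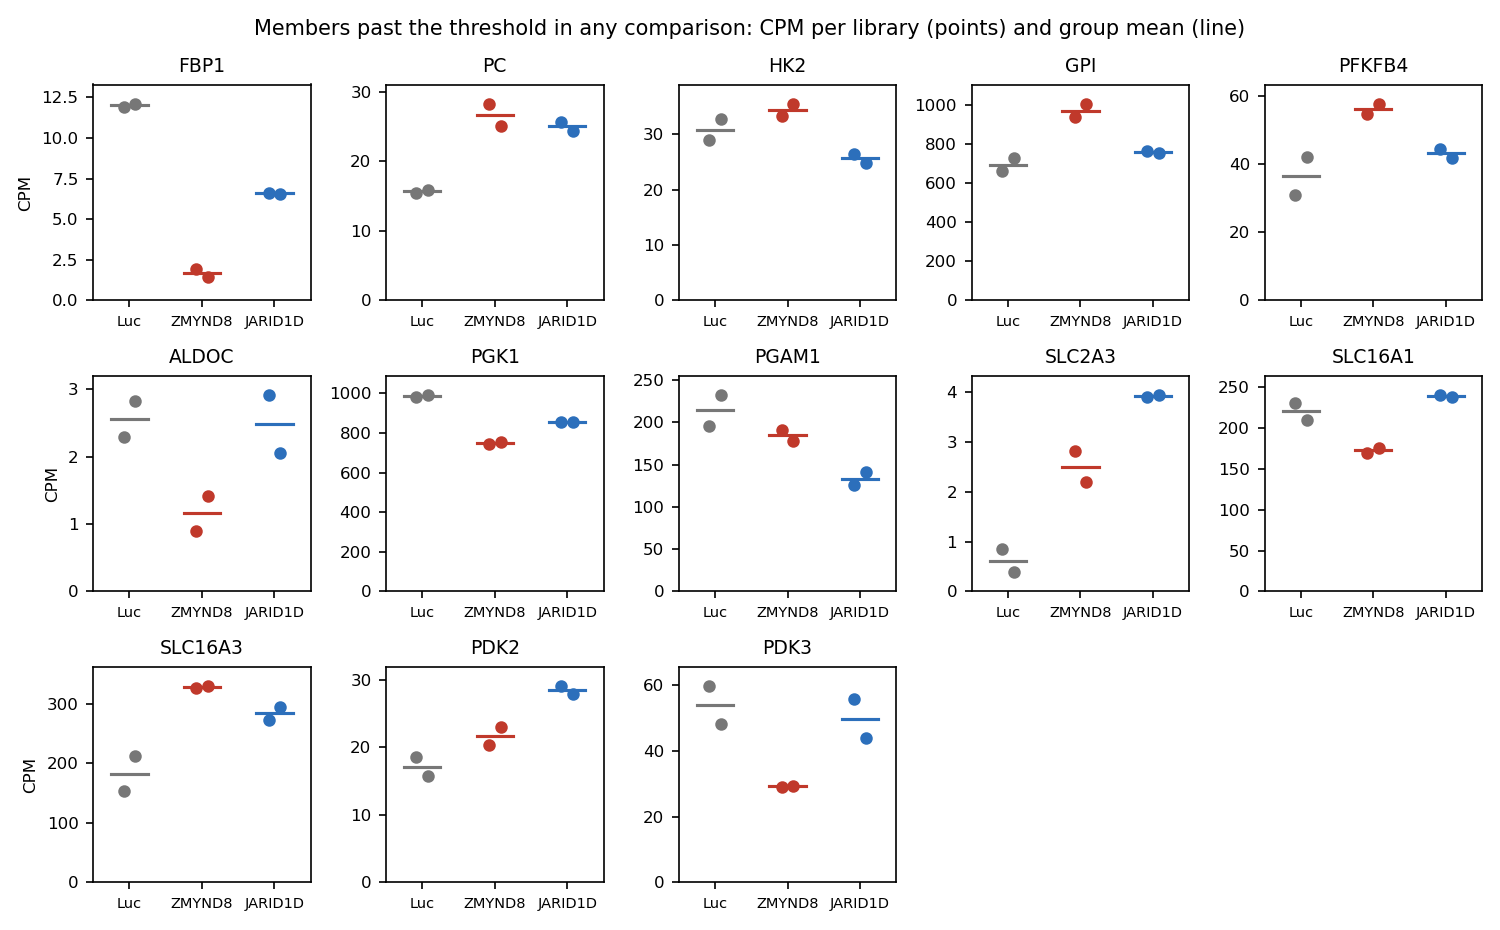
Level in CPM (linear axis from 0, its own scale in each panel) of the 13 members that passed in any of the 3 comparisons, with a point for each library, a line for the group mean, and groups named by their hairpin (Luc for shLuciferase). FBP1 falls from 11.9 and 12.1 CPM in the control to 1.93 and 1.42 CPM in shZMYND8, while SLC2A3 and SLC16A3 lie higher in both knockdowns.

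RefSeq promoter windows show the sequence at the start of the members that moved most clearly in shZMYND8: the 2 falls (FBP1, PDK3) and 2 rises (GPI, PFKFB4) with the smallest adjusted p among members with a single window. Each holds 300 bases around the start of the gene, most of them before it, 5′ to 3′ on the gene's strand, in build GRCh38.p14: chr9:94639469-94639768 on the minus strand for FBP1, chrX:24465036-24465335 on the plus strand for PDK3, chr19:34364742-34365041 on the plus strand for GPI and chr3:48556754-48557053 on the minus strand for PFKFB4. Capitals mark ACGTG and GCGTG, the core of the element that hypoxia-inducible factors bind, on either strand; the E-box CACGTG, which contains ACGTG, was searched too.
FBP1: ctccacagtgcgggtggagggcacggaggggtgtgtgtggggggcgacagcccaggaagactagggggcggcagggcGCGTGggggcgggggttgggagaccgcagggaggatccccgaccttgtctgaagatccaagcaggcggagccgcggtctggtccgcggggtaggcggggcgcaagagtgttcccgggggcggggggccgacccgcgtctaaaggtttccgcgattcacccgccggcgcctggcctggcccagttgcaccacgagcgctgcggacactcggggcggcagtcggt
PDK3: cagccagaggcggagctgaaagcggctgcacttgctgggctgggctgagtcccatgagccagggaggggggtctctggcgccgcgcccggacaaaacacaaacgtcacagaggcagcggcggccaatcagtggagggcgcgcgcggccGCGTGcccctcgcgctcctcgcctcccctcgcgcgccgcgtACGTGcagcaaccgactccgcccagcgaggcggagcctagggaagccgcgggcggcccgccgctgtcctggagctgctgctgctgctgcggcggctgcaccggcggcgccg
GPI: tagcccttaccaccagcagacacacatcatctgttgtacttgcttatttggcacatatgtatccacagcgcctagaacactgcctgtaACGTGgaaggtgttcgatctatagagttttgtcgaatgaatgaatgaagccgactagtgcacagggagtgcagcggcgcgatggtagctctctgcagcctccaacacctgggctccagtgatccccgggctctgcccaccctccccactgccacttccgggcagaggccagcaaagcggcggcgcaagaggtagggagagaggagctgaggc
PFKFB4: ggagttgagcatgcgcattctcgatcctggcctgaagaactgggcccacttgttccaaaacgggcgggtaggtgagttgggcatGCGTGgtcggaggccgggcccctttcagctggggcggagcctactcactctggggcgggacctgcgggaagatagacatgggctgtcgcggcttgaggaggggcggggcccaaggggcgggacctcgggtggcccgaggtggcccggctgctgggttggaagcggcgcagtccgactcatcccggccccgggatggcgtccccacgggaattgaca
FBP1, which fell, holds GCGTG 173 bases before its start, and PFKFB4, which rose, holds GCGTG 166 bases before its start. PDK3, which fell, holds ACGTG and GCGTG, and GPI, which rose, holds ACGTG, so these letters occur in members of both directions. RefSeq windows were matched for 30 members, 62 windows in all, and not for PFKFB2, SLC16A1 and SLC2A3. ACGTG or GCGTG was in 64.5% of the member windows and in 48.4% of all 35116 promoter windows of this length. CACGTG was in 17.7% and 7.26%. Windows of the same gene can overlap, so a site can count more than once, as the CACGTG sites of G6PC3 do. The median GC content was 68.0% in the member windows and 58.7% in all windows. A match describes letters in a window and does not show that a factor binds there.

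The 17 glycolytic enzymes from hexokinase to lactate dehydrogenase were called at about the share of all genes. In shZMYND8 1 of them was higher (GPI), 2 were lower (ALDOC and PGK1) and 14 did not pass, with a median log2 fold change of -0.13; the share called was 17.6%, beside 16.2% of all genes tested. In shJARID1D 1 was lower (PGAM1) and 16 did not pass, with a median of -0.16 and a share called of 5.88%, beside 5.75% of all genes tested.

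Among the enzymes of the first steps, GPI, which turns glucose phosphate into fructose phosphate, had 659 and 727 CPM in the control, 936 and 1002 CPM in shZMYND8 and 765 and 753 CPM in shJARID1D. The shZMYND8 libraries lay above all others. GPI rose 1.40-fold in shZMYND8 (log2 0.48, SE 0.12, edgeR adjusted p = 0.021), and its log2 fold change in shJARID1D was 0.13 (95% interval -0.13 to 0.39). HK1 and HK2, hexokinases that trap glucose in the cell, did not pass in either knockdown: the log2 fold changes were -0.11 and 0.11 for HK1 and 0.15 and -0.26 for HK2. Without shZMYND8 replicate 1 or 2 the rise of GPI no longer passed (0.53 and 0.43, edgeR adjusted p = 0.0937 and 0.152).

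The 3 phosphofructokinases, which catalyse the step that FBP1 undoes, did not pass in either knockdown. PFKL, the liver type, had 182 and 244 CPM in the control, 157 and 157 CPM in shZMYND8 and 191 and 189 CPM in shJARID1D. The log2 fold change of PFKL in shZMYND8 was -0.44 (95% interval -0.76 to -0.12, edgeR adjusted p = 0.0653) and in shJARID1D -0.16 (95% interval -0.48 to 0.16). PFKM, the muscle type, had log2 fold changes of -0.04 (95% interval -0.29 to 0.21) and 0.15 (95% interval -0.10 to 0.40), and PFKP, the platelet type, had -0.07 (95% interval -0.40 to 0.26) and -0.28 (95% interval -0.62 to 0.05). So none of these intervals holds the FBP1 value of the same knockdown (-2.84 in shZMYND8 and -0.86 in shJARID1D). In shJARID1D, however, the interval of FBP1 itself (-1.27 to -0.45) overlaps those of PFKL and PFKP. Without shLuciferase replicate 1, PFKL was lower in shZMYND8 (-0.64, edgeR adjusted p = 0.00453) and PFKP was lower in shJARID1D (-0.47, edgeR adjusted p = 0.0405). DESeq2 called PFKL in shZMYND8 too (-0.45, adjusted p = 0.0223).

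The PFKFB enzymes make and remove the sugar phosphate that activates phosphofructokinase and inhibits FBP1. PFKFB4 had 31.0 and 42.0 CPM in the control, 54.7 and 57.7 CPM in shZMYND8 and 44.5 and 42.0 CPM in shJARID1D. Both shZMYND8 libraries were higher than all others, and the higher control library lay between the shJARID1D libraries. PFKFB4 rose 1.54-fold in shZMYND8 (log2 0.62, SE 0.15, edgeR adjusted p = 0.0213), and its log2 fold change in shJARID1D was 0.24 (95% interval -0.09 to 0.58). PFKFB2 and PFKFB3 did not pass, with log2 fold changes of 0.05 and 0.14 in shZMYND8 and -0.04 and -0.14 in shJARID1D. The rise of PFKFB4 missed the threshold without shZMYND8 replicate 1 (0.66, edgeR adjusted p = 0.103) or replicate 2 (0.58, edgeR adjusted p = 0.136), and without shLuciferase replicate 2 PFKFB4 passed in shJARID1D (0.48, edgeR adjusted p = 0.0452).

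Aldolases split the phosphorylated fructose, and triose phosphate isomerase (TPI1) interconverts the products. ALDOC, the brain type aldolase, had 2.30 and 2.83 CPM in the control, 0.900 and 1.42 CPM in shZMYND8 and 2.91 and 2.06 CPM in shJARID1D, from 23 to 68 fragments. The shZMYND8 libraries lay below the other 4. ALDOC fell by 1.14 on the log2 scale in shZMYND8 (SE 0.34, edgeR adjusted p = 0.0481), a call that passed in only 4 of 16 alternative fits. Without shZMYND8 replicate 1 its log2 fold change was -0.86 (edgeR adjusted p = 0.295), and it also missed the threshold without shZMYND8 replicate 2 (-1.51, 0.0876), shLuciferase replicate 2 (-0.99, 0.12), shJARID1D replicate 1 (-1.14, 0.0615) and shJARID1D replicate 2 (-1.15, 0.0549). ALDOA, the aldolase of most tissues, had log2 fold changes of 0.01 (95% interval -0.30 to 0.32) and -0.10 (95% interval -0.41 to 0.21), with overlapping groups. TPI1 had 683 and 807 CPM in the control against 593 and 593 CPM in shZMYND8 and 601 and 615 CPM in shJARID1D. Both knockdowns lay below the control for TPI1, but the log2 fold changes of -0.33 and -0.29 did not pass (edgeR adjusted p = 0.0969 and 0.182). Without shLuciferase replicate 1, TPI1 was lower in shZMYND8 (-0.45, edgeR adjusted p = 0.0279).

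The energy-yielding stretch of glycolysis runs from GAPDH, the triose phosphate dehydrogenase, to PKM, the pyruvate kinase. PGK1, which makes ATP, had 980 and 992 CPM in the control, 745 and 755 CPM in shZMYND8 and 855 and 855 CPM in shJARID1D. The groups did not overlap. PGK1 fell in shZMYND8, by 0.39 on the log2 scale or 1.31-fold (SE 0.11, edgeR adjusted p = 0.037), and its log2 fold change in shJARID1D was -0.21 (95% interval -0.45 to 0.04). PGAM1, the phosphoglycerate mutase, had 196 and 232 CPM in the control, 191 and 178 CPM in shZMYND8 and 126 and 141 CPM in shJARID1D. Here the shJARID1D libraries were lowest and stood apart from the other 4. PGAM1 fell 1.61-fold in shJARID1D (log2 -0.68, SE 0.13, edgeR adjusted p = 0.0203), while its log2 fold change in shZMYND8 was -0.21 (95% interval -0.50 to 0.07). The fall of PGK1 was lost without each of the 4 knockdown libraries, with edgeR adjusted p = 0.202, 0.169, 0.0903 and 0.0806 without shZMYND8 replicates 1 and 2 and shJARID1D replicates 1 and 2. That of PGAM1 was lost without shJARID1D replicate 1 (-0.60, edgeR adjusted p = 0.191) or 2 (-0.77, edgeR adjusted p = 0.094).

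PKM had 4875 and 5825 CPM in the control, 4082 and 4193 CPM in shZMYND8 and 3805 and 4117 CPM in shJARID1D. All knockdown libraries lay below both control libraries, but neither difference passed: the log2 fold change was -0.37 (95% interval -0.66 to -0.08, edgeR adjusted p = 0.0776) in shZMYND8 and -0.43 (95% interval -0.72 to -0.15, edgeR adjusted p = 0.0781) in shJARID1D. Without shLuciferase replicate 1 both passed (-0.50 and -0.56, edgeR adjusted p = 0.0204 and 0.019), as they did with DESeq2 (-0.38 and -0.44, adjusted p = 0.0238 and 0.0112). GAPDH, often used as a reference gene, had 3670 and 4020 CPM in the control, 3482 and 3545 CPM in shZMYND8 and 3517 and 3738 CPM in shJARID1D. Its log2 fold changes were -0.13 (95% interval -0.39 to 0.13) and -0.08 (95% interval -0.34 to 0.18) and did not pass. The enolases make phosphoenolpyruvate. ENO1, the form of most tissues, had overlapping groups and log2 fold changes of -0.11 and -0.15. ENO2, the neuronal form, had 79.7 and 94.97 CPM in the control and 62.2 and 68.6 CPM in shZMYND8, a log2 fold change of -0.42 that did not pass (95% interval -0.71 to -0.12, edgeR adjusted p = 0.0574). Without shLuciferase replicate 1 ENO2 passed (-0.54, edgeR adjusted p = 0.0119), and DESeq2 called it too (-0.42, adjusted p = 0.0312).

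Lactate dehydrogenase subunits did not pass in either knockdown. LDHA, the subunit that favours lactate formation, had 989 and 873 CPM in the control, 887 and 848 CPM in shZMYND8 and 731 and 719 CPM in shJARID1D. The shJARID1D libraries were lowest, with a log2 fold change of -0.36 (95% interval -0.62 to -0.10, edgeR adjusted p = 0.102), and in shZMYND8 it was -0.10 (95% interval -0.37 to 0.16). With DESeq2 LDHA was lower in shJARID1D (-0.37, adjusted p = 0.0322). LDHB, the heart type subunit, had log2 fold changes of -0.16 and -0.12. Several of these enzymes, among them GAPDH, PGK1, PGAM1, ENO1, TPI1, LDHA, LDHB, PKM and ALDOA, have near copies or processed pseudogenes, and the authors' software divides shared reads by estimate, so their counts are less certain.

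Of the 4 transporters of sugar and lactate, SLC2A3 and SLC16A3 rose in both knockdowns. SLC2A3, a glucose transporter of high affinity, had 0.852 and 0.386 CPM in the control, 2.83 and 2.19 CPM in shZMYND8 and 3.90 and 3.94 CPM in shJARID1D. The control libraries were lowest, with 19 and 9 fragments against 72 and 58 in shZMYND8 and 91 and 79 in shJARID1D. SLC2A3 rose 4.03-fold in shZMYND8 (log2 2.01, SE 0.38, edgeR adjusted p = 0.00696) and 6.29-fold in shJARID1D (log2 2.65, SE 0.37, edgeR adjusted p = 0.00848). SLC2A1, the widespread glucose transporter, had 210 and 269 CPM in the control, 193 and 216 CPM in shZMYND8 and 202 and 220 CPM in shJARID1D. Its groups overlapped, and its log2 fold changes of -0.23 (95% interval -0.54 to 0.09) and -0.18 (95% interval -0.50 to 0.14) did not pass. The rise of SLC2A3 missed the threshold without shZMYND8 replicate 1 in shZMYND8 (1.81, edgeR adjusted p = 0.0678) and without shJARID1D replicate 1 (2.66, edgeR adjusted p = 0.0662) or 2 (2.65, edgeR adjusted p = 0.0531) in shJARID1D.

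SLC16A3, the monocarboxylate transporter that exports lactate from glycolytic cells, had 153 and 212 CPM in the control, 326 and 329 CPM in shZMYND8 and 273 and 295 CPM in shJARID1D. Every knockdown library lay above both control libraries, which differed from each other more than the libraries of either knockdown did. SLC16A3 rose 1.80-fold in shZMYND8 (log2 0.84, SE 0.15, edgeR adjusted p = 0.0063) and 1.56-fold in shJARID1D (log2 0.64, SE 0.15, edgeR adjusted p = 0.0436). SLC16A1, the more widespread monocarboxylate transporter, had 231 and 210 CPM in the control, 169.7 and 175 CPM in shZMYND8 and 240 and 237 CPM in shJARID1D. The shZMYND8 libraries were lowest, but the log2 fold change of -0.35 against the control did not pass (95% interval -0.61 to -0.10, edgeR adjusted p = 0.0601). In shZMYND8 the rise of SLC16A3 missed the threshold without replicate 1 (0.85, edgeR adjusted p = 0.0522). In shJARID1D it was lost without any library except shLuciferase replicate 2: the log2 fold change was 0.42 without shLuciferase replicate 1 (edgeR adjusted p = 0.0559), 0.64 without shZMYND8 replicate 1 or 2 (edgeR adjusted p = 0.0844 and 0.089), and 0.69 and 0.59 without shJARID1D replicates 1 and 2 (edgeR adjusted p = 0.181 and 0.204). SLC16A1 passed as lower in shZMYND8 without shLuciferase replicate 2 (-0.43, edgeR adjusted p = 0.0312) and with DESeq2 (-0.36, adjusted p = 0.0244).

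Pyruvate enters the mitochondrial cycle through pyruvate dehydrogenase, which the kinases PDK1, PDK2 and PDK3 switch off. PDK3 had 59.7 and 48.2 CPM in the control, 29.2 and 29.2 CPM in shZMYND8 and 55.8 and 43.8 CPM in shJARID1D. The shZMYND8 libraries were lowest, and the other groups overlapped. PDK3 fell by 0.89 on the log2 scale in shZMYND8, or 1.85-fold (SE 0.15, edgeR adjusted p = 0.00508), and had a log2 fold change of -0.12 in shJARID1D (95% interval -0.46 to 0.22). PDK2 had 18.6 and 15.7 CPM in the control, 20.4 and 23.0 CPM in shZMYND8 and 29.1 and 27.9 CPM in shJARID1D. The groups did not overlap, with shJARID1D highest. PDK2 rose 1.66-fold in shJARID1D (log2 0.73, SE 0.14, edgeR adjusted p = 0.0207), and its log2 fold change of 0.34 in shZMYND8 did not pass (95% interval 0.03 to 0.65, edgeR adjusted p = 0.128). PDK1 had overlapping groups and log2 fold changes of 0.16 and 0.04. PDHA1 and PDHB, subunits of pyruvate dehydrogenase, lay between 46.2 and 64.8 CPM in every library. They had log2 fold changes of 0.04 and 0.05 in shZMYND8 and 0.01 and 0.20 in shJARID1D, none of which passed. Without shZMYND8 replicate 1 the fall of PDK3 missed the threshold (-0.89, edgeR adjusted p = 0.0584), as the rise of PDK2 did without shJARID1D replicate 1 (0.70, edgeR adjusted p = 0.162) or 2 (0.76, edgeR adjusted p = 0.0965). PDK2 passed in shZMYND8 without shLuciferase replicate 1 (0.46, edgeR adjusted p = 0.0463).

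The knockdowns were also compared with each other, which uses no control library in the contrast. There 5 of the 33 members differed, 2 higher and 3 lower in shZMYND8 than in shJARID1D, against 15.7% of all genes tested (8.67% higher and 7.02% lower). FBP1 was 3.94-fold lower in shZMYND8 (log2 -1.98, SE 0.21, 95% interval -2.46 to -1.50, edgeR adjusted p = 0.000834), and of the 1114 lower genes 52 had a larger difference and 24 a smaller p. PDK3 was 1.70-fold lower (log2 -0.77, SE 0.15, edgeR adjusted p = 0.011) and SLC16A1 1.39-fold lower (log2 -0.47, SE 0.11, edgeR adjusted p = 0.0228). The 2 glycolytic enzymes PGAM1 (log2 0.47, SE 0.13, edgeR adjusted p = 0.0354) and HK2 (log2 0.42, SE 0.12, edgeR adjusted p = 0.0481) were higher in shZMYND8. HK2 had 33.3 and 35.4 CPM in shZMYND8 and 26.5 and 24.9 CPM in shJARID1D, with 29.0 and 32.7 CPM in the control between them.

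For the members that rose in both knockdowns, the direct comparison did not separate the knockdowns. The log2 difference was 0.09 for PC (95% interval -0.19 to 0.37), 0.21 for SLC16A3 (95% interval -0.13 to 0.55) and -0.64 for SLC2A3 (95% interval -1.34 to 0.06). For members called in shZMYND8 alone among the control comparisons, it was 0.35 for GPI (95% interval 0.09 to 0.61, edgeR adjusted p = 0.0674), 0.38 for PFKFB4 (95% interval 0.04 to 0.71, edgeR adjusted p = 0.113), -1.10 for ALDOC (95% interval -1.86 to -0.33, edgeR adjusted p = 0.0561) and -0.19 for PGK1 (95% interval -0.43 to 0.06), none of which passed. For PDK2, called in shJARID1D alone, it was -0.39 (95% interval -0.70 to -0.09, edgeR adjusted p = 0.0784) and did not pass. In this comparison FBP1 kept its call without each library, with values from -2.22 to -1.77. The other 4 calls were lost without shZMYND8 replicate 1, shZMYND8 replicate 2 or shJARID1D replicate 1, with edgeR adjusted p from 0.0878 to 0.26, and without shJARID1D replicate 2 PDK3 was the only one of these 4 to pass. Without either control library the count was 9, against 25.6% of all genes: GPI (0.35), PFKFB4 (0.38), ALDOC (-1.10) and PDK2 (-0.39 and -0.40) passed as well, with edgeR adjusted p from 0.0174 to 0.0388.

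**Figure D3:**
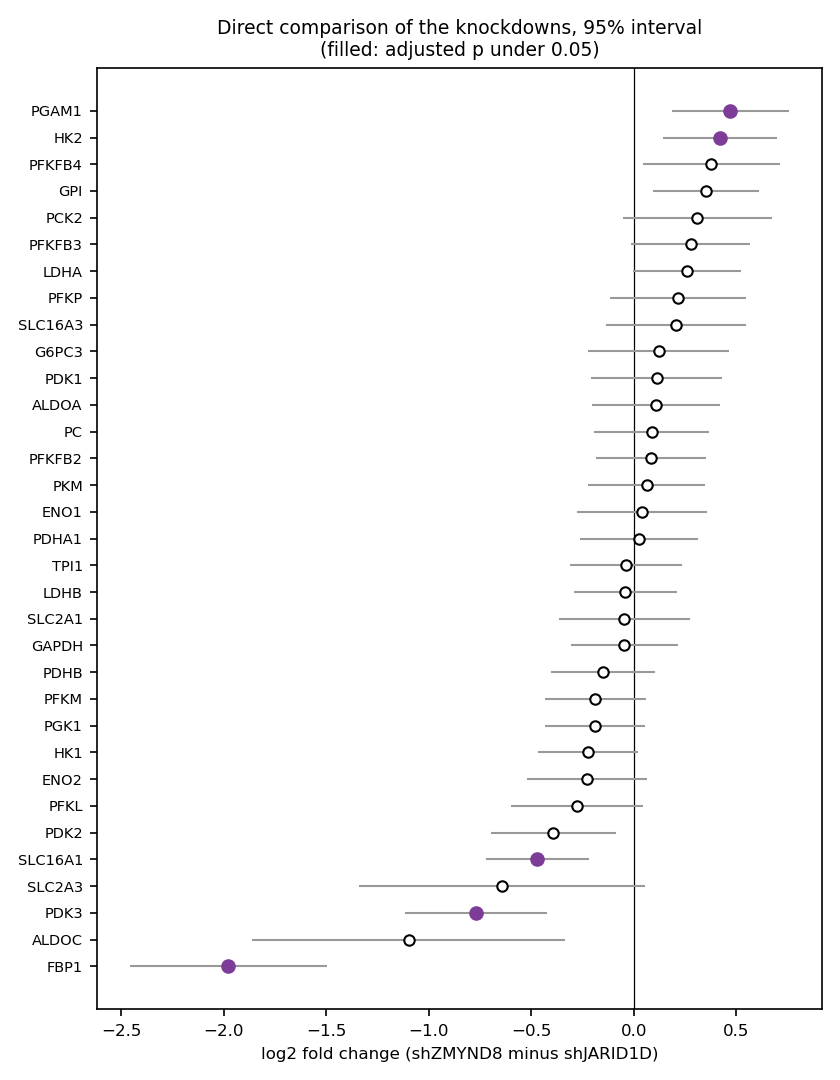
Log2 fold change (shZMYND8 minus shJARID1D) of the 33 members with its 95% interval, sorted by value, with filled points for an adjusted p under 0.05. FBP1 at -1.98 is the lowest point, and 24 of the other members have intervals that include 0.

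Shares were taken of the counts of the quantified genes in a library. The 33 members together held 2.27% ± 0.223 (SD, n = 2) in the control, 2.11% ± 0.00823 in shZMYND8 and 2.12% ± 0.0438 in shJARID1D. The control libraries, at 2.11% and 2.42%, differed from each other by more than the group means did. Most of the share came from GAPDH, ENO1, PKM and ALDOA, 4 of the 10 most abundant of the quantified genes. Genes marked as not quantified could not be ranked. The transporters' share was 0.0580% and 0.0667% in the control, 0.0696% and 0.0712% in shZMYND8 and 0.0759% and 0.0763% in shJARID1D, with the control libraries lowest.

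Genes of neighbouring pathways were taken as 9 lists with 128 genes, of which 108 were tested. In shZMYND8 10 of these were higher and 7 lower (15.7%, beside 16.2% of all genes tested), and in shJARID1D 5 were higher and 7 lower (11.1%, beside 5.75%). Among 9 other enzymes of glycolysis and gluconeogenesis, 3 rose and 1 fell in shZMYND8. HKDC1, a hexokinase-like enzyme, had 12.3 and 15.9 CPM in the control, 32.0 and 38.6 CPM in shZMYND8 and 16.2 and 18.4 CPM in shJARID1D. It rose by 1.32 on the log2 scale in shZMYND8 (SE 0.16, edgeR adjusted p = 0.0011). ADPGK, which phosphorylates glucose with ADP, rose too (log2 0.89, SE 0.12, edgeR adjusted p = 0.00161), as did the muscle enolase ENO3 (log2 0.91, SE 0.27, edgeR adjusted p = 0.0462). MDH1, the cytosolic malate dehydrogenase, fell (log2 -0.42, SE 0.11, edgeR adjusted p = 0.0318). In shJARID1D edgeR called 0 of these 9 enzymes, with 4 at an unadjusted p under 0.05, and DESeq2 and limma voom called 0 as well.

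The oxidative pentose phosphate pathway branches off at the sugar that GPI uses. Of 9 genes of this pathway, 2 rose in shZMYND8 (22.2%, beside 16.2% of all genes tested), and 1 rose and 1 fell in shJARID1D (22.2%, beside 5.75%). PGD, its phosphogluconate dehydrogenase, had 278 and 246 CPM in the control, 545 and 502 CPM in shZMYND8 and 426 and 399 CPM in shJARID1D. All knockdown libraries lay above the control, with log2 fold changes of 1.00 (SE 0.12, edgeR adjusted p = 0.00105) and 0.66 (SE 0.12, edgeR adjusted p = 0.0197). Among 17 genes of glycogen metabolism, 2 were called in each knockdown (11.8%, beside 16.2% of all genes tested in shZMYND8 and 5.75% in shJARID1D). In shZMYND8 1 rose and 1 fell, namely PPP1R3C, a glycogen-targeting phosphatase subunit (log2 0.85, SE 0.14, edgeR adjusted p = 0.00376), and PYGB, the brain glycogen phosphorylase (log2 -0.69, SE 0.16, edgeR adjusted p = 0.0156). In shJARID1D both fell, PGM1, a phosphoglucomutase (log2 -0.75, SE 0.11, edgeR adjusted p = 0.01), and GYG2, a glycogenin (log2 -1.10, SE 0.26, edgeR adjusted p = 0.0399).

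Of 9 other genes of glucose and lactate transport, 2 fell in shJARID1D (22.2%, beside 5.75% of all genes tested) and 1 rose in shZMYND8 (11.1%, beside 16.2%). BSG and EMB, the chaperones that carry monocarboxylate transporters to the cell surface, fell in shJARID1D (log2 -0.62 and -0.72, SE 0.15 and 0.13, edgeR adjusted p = 0.0482 and 0.0191). In shZMYND8 DLAT, a subunit of pyruvate dehydrogenase (log2 -0.40, edgeR adjusted p = 0.0329), and the malic enzyme ME2 (log2 -0.43, edgeR adjusted p = 0.0342) fell among 13 lactate and pyruvate genes (15.4% called, beside 16.2% of all genes tested). Of 17 citric acid cycle genes, SUCLA2 and SDHA fell in shZMYND8, a share of 11.8% (log2 -0.42 and -0.41, edgeR adjusted p = 0.0484 and 0.0475), and edgeR called 0 in shJARID1D, with 1 at an unadjusted p under 0.05 and 0 by DESeq2 and limma voom.

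Hypoxia-inducible factors are known activators of many glycolytic genes, and 18 genes of that pathway outside glycolysis were tested. EPAS1, a hypoxia-inducible factor alpha subunit, had 55.3 and 44.5 CPM in the control, 146 and 145 CPM in shZMYND8 and 91.1 and 77.3 CPM in shJARID1D. The groups did not overlap, and EPAS1 rose by 1.54 (SE 0.14, edgeR adjusted p = 0.00045) and 0.75 (SE 0.14, edgeR adjusted p = 0.0197) on the log2 scale. EGLN3, a prolyl hydroxylase that marks these factors for breakdown, rose in both knockdowns as well (log2 1.09 and 0.80, SE 0.14 each, edgeR adjusted p = 0.00112 and 0.016). CA12, a carbonic anhydrase, rose in shZMYND8 (log2 1.12, SE 0.16, edgeR adjusted p = 0.00222), and NDRG1 (log2 0.49, edgeR adjusted p = 0.0396) and ADM (log2 0.94, edgeR adjusted p = 0.0434) rose in shJARID1D. BNIP3, a mitophagy receptor, fell in both (log2 -0.62 and -0.63, SE 0.13 each, edgeR adjusted p = 0.0134 and 0.0307). In shZMYND8 3 of the 18 were higher and 1 was lower (22.2% called, beside 16.2% of all genes tested). In shJARID1D 4 were higher and 1 was lower (27.8% called, beside 5.75%). Of 11 regulators of glucose metabolism edgeR called 0 in either knockdown, with 2 in each at an unadjusted p under 0.05, 1 in each by DESeq2 and 0 by limma voom.

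Among the neighbouring genes called in shZMYND8 against the control, HKDC1, ADPGK, PPP1R3C, PGD, EPAS1, EGLN3 and CA12 passed without each library in turn. The other 10 missed the threshold without shZMYND8 replicate 1, with edgeR adjusted p from 0.0575 for BNIP3 to 0.269 for ME2. Of these, all but PYGB missed it without shZMYND8 replicate 2 as well, DLAT, ENO3, MDH1, ME2, SDHA and SUCLA2 without either shJARID1D library, ENO3 and SUCLA2 without shLuciferase replicate 1, and H6PD, SDHA and SLC2A13 without shLuciferase replicate 2. All 12 called in shJARID1D missed it without replicate 1 or replicate 2 of that group, with edgeR adjusted p from 0.0709 to 0.298. ADM, BNIP3, BSG, GYG2, NDRG1 and PDPR missed it also without either shZMYND8 library (edgeR adjusted p from 0.0541 to 0.094), ADM without shLuciferase replicate 1 (edgeR adjusted p = 0.0728), and BSG and GYG2 without shLuciferase replicate 2 (edgeR adjusted p = 0.103 and 0.0691).

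**Figure D4:**
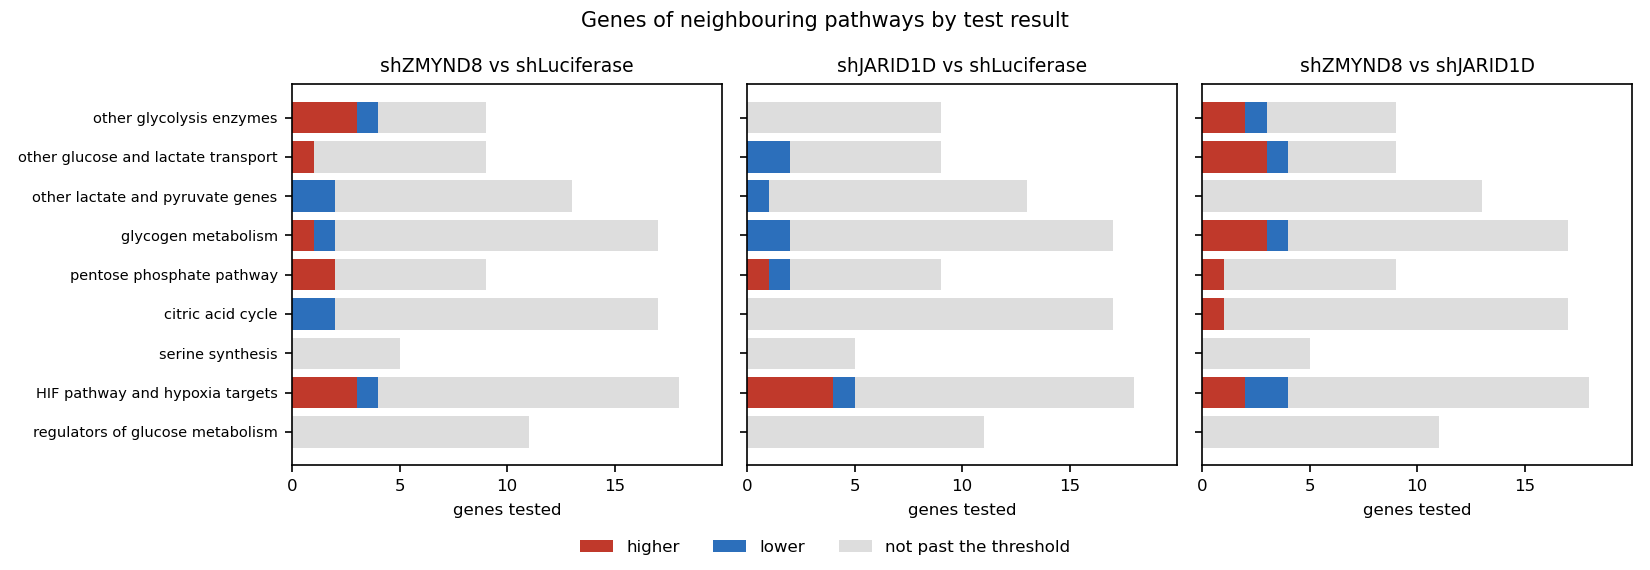
Number of genes tested in each of 9 neighbouring pathway lists (bar length), split into genes higher, lower or not past the threshold in the first-named group of each of the 3 comparisons. In every list the grey part is the longest, and the hypoxia list holds 3 higher and 1 lower gene in shZMYND8 and 4 higher and 1 lower in shJARID1D.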

How the data were processed

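RNA was measured in 6 libraries, 2 each of shLuciferase, shZMYND8 and shJARID1D. The authors deposited a gene table of estimated counts (expected counts per gene and library, with non-whole values). The submitters' processing notes list, without roles, hg19 (GRCh37), Cuffdiff, Bowtie 1.1.2, TopHat2 2.0.12 and edgeR 3.12.0. Annotation and strand were not stated there, which leaves genes that overlap on either strand uncertain. The deposited values are scaled per library, with 1 fragment worth 0.881 to 1.16, and 84.0% to 84.9% of the quotients under 1000 were whole to within 0.05. Fragment numbers are these quotients. In all, 18 further columns of per-library values were not used.

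Counts were rounded to whole numbers. The table marks 60 genes as not quantified in some library, and these were left out; 10 marked as failed were kept, and the members were among neither. Genes were filtered with filterByExpr (15867 of 28443 left) and tested with edgeR 4.0.16 in R 4.3.3 (TMM scaling, quasi-likelihood F test, all 6 libraries in a single fit with 3 residual and 6.83 prior degrees of freedom, a biological coefficient of variation of 12.3% and no replicate block), with Benjamini-Hochberg adjustment over all tested genes. The fit gave the SE and unadjusted 95% interval of each log2 fold change. Simulated data of 15636 genes had 66 genes changed at each size of change and the same spread for every gene. There the shZMYND8 comparison recovered 18.2% of changes of 0.5, 81.8% of 1 and 98.5% of 2 on the log2 scale. Far fewer genes changed there than the 2574 called in the data, so the adjusted threshold was harder to pass. These shares therefore do not carry over to the data.

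The members and the pathway and marker lists were chosen with earlier results of these data known. All members are named; of each pathway list up to 4 called genes per comparison by smallest adjusted p were eligible, and examples are printed. A few list genes are not reported here. Of 128 list genes, 1 was matched through a synonym. As alternatives, the scaling was by upper quartile, relative log expression or library totals, or the deposited scaling was undone. The filter was dropped or set to a mean count of at least 50, and unquantified genes were kept at 0. The test was DESeq2 1.42.0 or limma 3.58.1 voom, the fit held only the groups compared or a replicate block, each library was left out, and the threshold was 0.01. For shares the 10 most abundant genes were left out. Figures were drawn with Python 3.11.15 and matplotlib 3.10.9. Promoter windows are RefSeq's, in a later build (GRCh38.p14) than the count table's.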

Additional observations from a re-analysis of the deposited data

How the results depend on the processing

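With 2 libraries a group, some changes of under 0.5 on the log2 scale passed and others of like size did not. In shZMYND8 GPI (0.48) and PGK1 (-0.39) passed, while PFKL (-0.44) and ENO2 (-0.42) did not. A member that did not pass is thus not shown to be unchanged. Leaving out a library leaves its group with 1, which is assumed to vary like the others. The count of members called ran from 1 to 14 over these fits in shZMYND8 against the control (9 with all libraries), from 0 to 7 in shJARID1D against the control (6), and from 1 to 9 between the knockdowns (5). In each of these fits the share called over all genes moved the same way as the count. At a threshold of 0.01 the counts were 5, 1 and 1, beside 6.31%, 0.485% and 4.8% of all genes tested. Without a filter on low counts 1 member was called in shJARID1D and 3 between the knockdowns, beside 0.969% and 7.41% of all genes tested. With only the groups compared 9 were called between the knockdowns, beside 27.1% of all genes tested. With the replicate number as a block 15 members were called in shZMYND8 (6 higher, 9 lower), 8 in shJARID1D and 8 between the knockdowns. With this block 23.3%, 13.1% and 23.9% of all genes tested were called in these comparisons. The replicate numbers are shared by name only, with correlations of same-numbered deviations of 0.092, 0.170 and 0.097 over the 3 pairs of groups. Without the 10 most abundant genes the members' share of counts was 0.681%, 0.665% and 0.664% in the control, shZMYND8 and shJARID1D. The cause of these shifts was not tested. Of 20 member calls, 2 (FBP1 in shZMYND8 against the control and against shJARID1D) passed in all 17 alternatives other than the stricter threshold, and 0 changed sign. Of the 79 member differences that did not pass, 27 changed sign in at least 1 alternative. Over the scalings the median of all genes moved by at most 0.089 on the log2 scale.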
